A study of Mus musculus with 24 samples.

Results

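The genes described here are p53 (Trp53) and 31 of its known target genes, 32 in all, taken as a list of gene symbols from general knowledge of the p53 network. The list was chosen with earlier results of these data known. Its counts set against all genes are therefore descriptions and not those of a list chosen blind. A total of 29 of them had a probe set of their own among the 19938 genes measured. Trp53 itself, Bax and Gdf15 were not analysed here, because no probe set carried their symbol or gene identifier in the platform annotation used. RNA came from NIH3T3 cells, an immortalised line of mouse fibroblasts, and was read on Affymetrix MoGene 1.0 ST arrays. All 24 arrays share a pre-treatment: 96 h in 1 mM difluoromethylornithine (DFMO), which blocks ornithine decarboxylase and so lowers the polyamine content of cells. The 3 arrays at 0 min are such cells without spermidine. The other groups received 10 µM spermidine in the presence of 1 mM aminoguanidine, an inhibitor of amine oxidases, and were taken after 30, 60, 120, 240, 360, 480 or 600 min, with 3 arrays at each time labelled as biological replicates. Whether aminoguanidine was also given to the 0 min dishes is not in the labels. No array holds DFMO-treated cells left without spermidine for the same times, so spermidine and elapsed time cannot be told apart. In bulk RNA such as this, fewer cells of a kind and less RNA per cell cannot be told apart either.

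p53 is a transcription factor that is kept scarce in unstressed cells by Mdm2, a ubiquitin ligase, and by Mdm4, its relative. Stress signals free p53 from both, and it then switches on genes that halt the cell cycle, repair DNA or start cell death. Mdm2 is itself one of these targets, which closes a feedback loop. Many targets are read from response elements made of a pair of short half-sites, and several of them also answer to other transcription factors.

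Promoter sequence from RefSeq (build GRCm38.p6, windows of 300 bases of which 250 lie before the start) was at hand for 22 of the 29 measured genes. The p53 half-site consensus, 10 bases long and the same on both strands, was found in the windows of 7 of these 22 genes (31.8%), against 2582 of 27025 genes in the whole table (9.55%). A full element of 2 consensus half-sites at most 13 bases apart lay in 0 of the 22 and in 20 of the 27025 (0.074%). The 6 genes with a half-site before the start are shown because they span the patterns described below, from Mdm2, which fell, to Ckap2, which rose. Each stretch is written 5′ to 3′ in the direction of the gene, with the half-site in capitals and up to 45 bases on each side. A match is a description of these letters and not evidence of binding, and the seventh gene, Gtse1, has its match after the start.
Mdm2: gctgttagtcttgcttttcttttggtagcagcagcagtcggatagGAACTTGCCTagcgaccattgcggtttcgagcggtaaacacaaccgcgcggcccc
Ccng1: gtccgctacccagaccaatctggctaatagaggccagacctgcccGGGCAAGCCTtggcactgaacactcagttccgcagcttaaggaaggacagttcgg
Aen: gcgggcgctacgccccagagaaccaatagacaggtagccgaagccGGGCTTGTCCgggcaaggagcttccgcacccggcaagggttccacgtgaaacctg
Ei24: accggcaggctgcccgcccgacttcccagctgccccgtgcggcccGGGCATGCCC
Polk: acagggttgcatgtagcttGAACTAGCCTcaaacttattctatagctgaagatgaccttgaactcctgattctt
Ckap2: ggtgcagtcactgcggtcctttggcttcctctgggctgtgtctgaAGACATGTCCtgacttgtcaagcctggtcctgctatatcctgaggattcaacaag

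The Mdm2 stretch is chr10:117710890-117710989 on the minus strand, and its half-site begins 186 bases before the start. For Ccng1 the stretch is chr11:40755417-40755516 on the minus strand, with the half-site beginning 185 bases before the start. The Aen stretch, chr7:78895892-78895991 on the plus strand, has its half-site 121 bases before one of the annotated starts. In Ei24, chr9:36797335-36797389 on the minus strand, the half-site ends directly at the start. The Polk stretch, chr13:96519364-96519437 on the minus strand, belongs to one of its annotated starts, and the half-site begins 231 bases before it. That of Ckap2 is chr8:22185968-22186067 on the minus strand, with the half-site beginning 203 bases before the start.

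The arrays behind these values had medians between 4.40 and 4.45 on the log2 scale, and the median standard error (SE) of a difference from 0 min was 0.0567. On the first principal component of all genes, which held 63.1% of the variance, replicate 3 labelled 120 min (2.61) lay apart from both other arrays of its time (-12.2 each). Replicate 3 labelled 240 min (-13.2) did so too (2.07 and 1.49). Each of these arrays thus lay near the other arrays of the other's time. The p53 targets moved with them: their mean change from 0 min was -0.41 in that 120 min array against -0.08 and -0.01, and -0.11 in that 240 min array against -0.41 and -0.42. Whether the labels of this outlying pair were exchanged was not tested. The pair was kept in the main values under its labels, and the counts at 120 and 240 min are given with and without it. Leaving out arrays picked for lying apart narrows the spread by selection, so p-values without them may be too small. The fibroblast label was checked on 9 markers, whose mean level was 9.52 to 9.88 in every array. Strong ones were Vim at 12.66 to 12.82 and Col1a2 at 11.35 to 11.78. The weakest were Dcn at 5.56 to 6.43 and Thy1 at 5.62 to 6.39. All 20 markers of epithelium, leukocytes, endothelium, adipocytes and muscle lay between 3.49 and 4.94, near the array medians. In late against early arrays, Pdgfrb (0.49) and Vim (0.09) were called higher and Cdh1 (-0.33) and Des (-0.19) lower. Their part in the results was not tested.

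Over the time course the p53 targets first lay slightly above and then well below their 0 min level. The highest mean of the 8 times fell at 30 min for 19 of the 29 genes and at 60 min for 8, compared with 11.6% and 12.5% of all genes. It fell at 0 min for 0 of the 29, against 12.0% of all genes. Genes that fall late can hardly have their highest mean late, whereas 20.7% of all genes had theirs at 600 min. These shares are therefore not a like background, and an early highest mean partly restates the late fall. The lowest mean fell at 360 min for 14 and at 600 min for 10, compared with 8.93% and 17.5% of all genes. The median log2 difference from 0 min was 0.11 at 30 min, 0.08 at 60 min, -0.16 at 120 min and -0.27 at 240 min, or -0.04 and -0.36 there without the outlying pair. It was lowest at 360 min, at -0.68, and stood at -0.47 at 480 min and -0.39 at 600 min, while the median of all genes stayed between -0.01 and 0.01. All 7 comparisons with 0 min share the same 3 arrays at 0 min, so they are not independent of one another. In an F-test over all times, limma called 28 of the 29 genes at an adjusted p under 0.05, against 30.9% of all genes. The exception was Perp (adjusted p = 0.885), a gene of a cell-membrane protein linked to p53-dependent death, at 3.89 to 4.15 in every array and so under every array median.

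**Figure D1:**
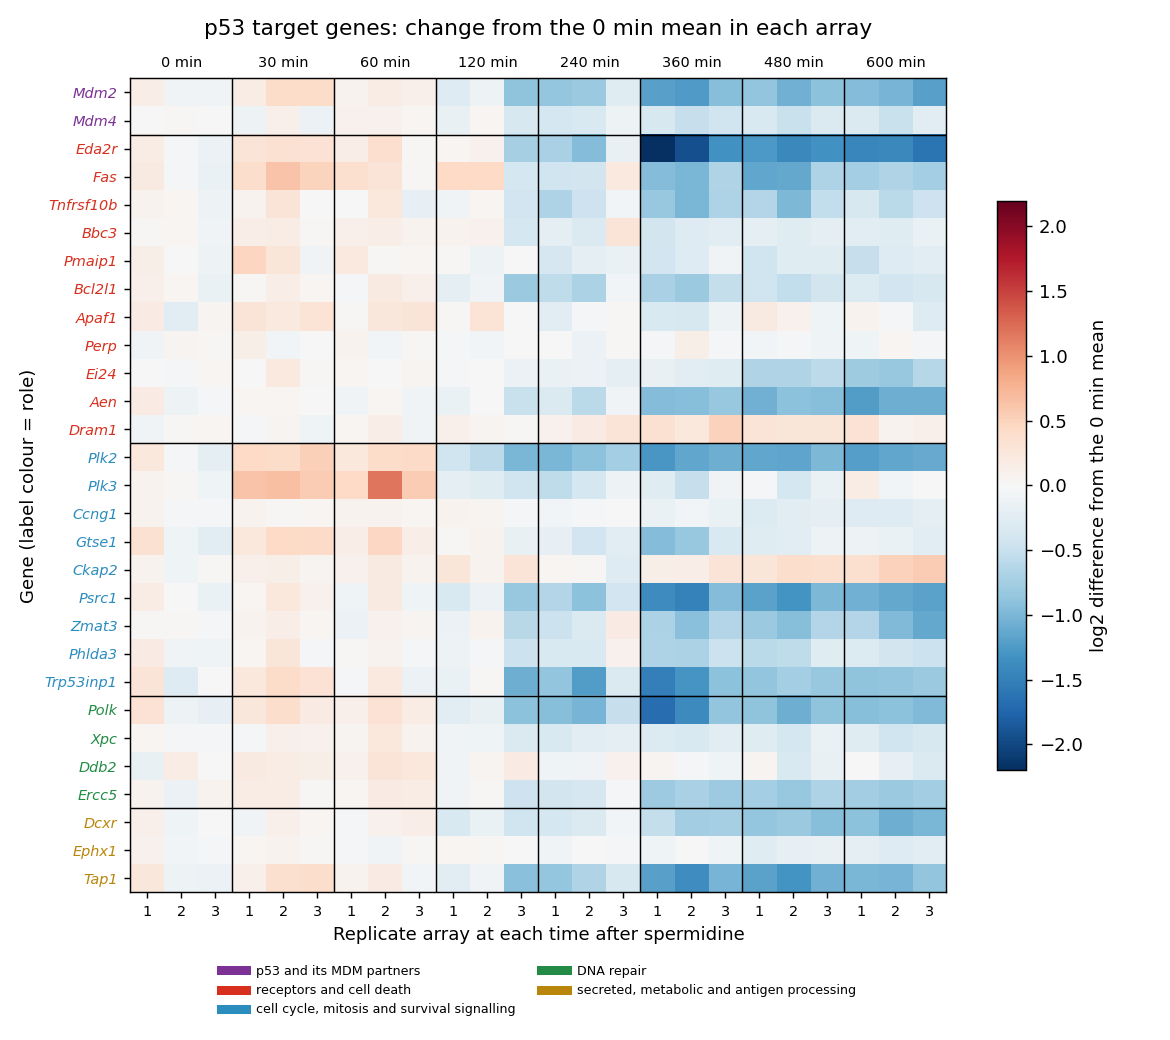
Log2 difference from the 0 min mean in each of the 24 arrays (columns, by time and replicate number) for the 29 measured p53 target genes (rows, grouped and coloured by role). Most rows turn from pale red at 30 and 60 min to blue from 360 min on, Dram1 and Ckap2 stay red late, and replicate 3 at 120 min and replicate 3 at 240 min differ from the other arrays of their times.

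At 30 min 0 of the 29 genes passed the test, as did 0.0150% of all genes upward and 0% downward. At 60 min the count was again 0, against 0.0100% of all genes higher and 0.0150% lower. The unadjusted p was under 0.05 for 5 of the 29 at 30 min and for 2 at 60 min, against 5.54% and 5.14% of all genes. The estimates leaned one way, with 27 of 29 differences above 0 at 30 min and 26 at 60 min. The median of all genes was -0.01 at 30 min and -0.00 at 60 min, and their share above 0 was not counted. These differences share the same 0 min arrays, so the genes are not independent of one another. All 3 arrays lay above all 3 arrays at 0 min for 7 genes at 30 min and for 5 at 60 min, against 5.10% and 5.49% of all genes. In 0 of the 29 did all 3 lie below, against 8.32% of all genes at 30 min and 6.00% at 60 min.

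Plk3, the gene of a stress-responsive polo-like kinase, had the largest difference at 30 min. Its log2 level was 5.57, 5.51 and 5.40 at 0 min, 6.11, 6.16 and 6.05 at 30 min, then 5.93, 6.66 and 6.04 at 60 min. Every array of 30 and 60 min lay above every 0 min array, by 0.61 ± 0.15 (SE) at 30 min and 0.72 ± 0.15 at 60 min on average. Neither difference passed the test (limma adjusted p = 0.453 and 0.206), but a fit to only the 6 arrays of 0 and 30 min did call Plk3 (adjusted p = 0.0234). Later values were 5.30, 5.23 and 5.06 at 120 min, 4.93, 5.10 and 5.37 at 240 min, 5.23, 4.99 and 5.41 at 360 min, 5.46, 5.11 and 5.35 at 480 min, then 5.65, 5.43 and 5.50 at 600 min. All arrays of 120 and 240 min were below those at 0 min, and from 360 min on the ranges overlapped. Plk3 was called at none of the times against 0 min, although it fell between early and late arrays, by 0.49 ± 0.09 (adjusted p = 9.40e-05).

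Mdm2, the ubiquitin ligase that restrains p53, was called lower than its starting level from 240 min on. Its values were 11.19, 10.98 and 10.97 at 0 min, 11.22, 11.45 and 11.45 at 30 min, then 11.13, 11.22 and 11.16 at 60 min. They were 10.77, 10.94 and 10.17 at 120 min, then 10.20, 10.23 and 10.78 at 240 min, where replicate 3 is in both cases the array that stood apart. Later values were 9.85, 9.81 and 10.12 at 360 min, 10.19, 9.99 and 10.15 at 480 min, then 10.10, 10.03 and 9.86 at 600 min. Every 30 min array was thus above and every array from 120 min on below the 0 min arrays. The 240 min difference was -0.64 ± 0.16 (adjusted p = 0.0313), and -0.83 without the outlying pair (adjusted p = 3.22e-05). That call was lost with the replicate block (0.0609), under quantile normalization (0.0509), in a fit to only the 6 arrays (0.128) and without any 1 of the 0 min arrays or replicate 1 or 2 of 240 min (0.0566 to 0.171). The difference from 0 min was 0.33 ± 0.16 at 30 min (adjusted p = 0.897), -1.12 ± 0.16 at 360 min, a 2.18-fold lower level (adjusted p = 5.16e-05), and -1.05 ± 0.16 at 600 min (adjusted p = 3.50e-05).

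Mdm4, the gene of the p53 inhibitor related to Mdm2, was also lower late. It measured 7.91, 7.93 and 7.90 at 0 min, 7.80, 8.03 and 7.78 at 30 min, 8.01, 8.00 and 7.96 at 60 min, then 7.75, 7.95 and 7.56 at 120 min. It measured 7.53, 7.58 and 7.80 at 240 min, 7.56, 7.41 and 7.48 at 360 min, 7.57, 7.42 and 7.60 at 480 min, then 7.59, 7.42 and 7.66 at 600 min. The 30 min arrays overlapped those at 0 min, whereas all late arrays lay below them. Mdm4 fell by 0.43 ± 0.09 at 360 min (adjusted p = 0.00168) and by 0.36 ± 0.09 at 600 min (adjusted p = 0.00466).

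**Figure D2:**
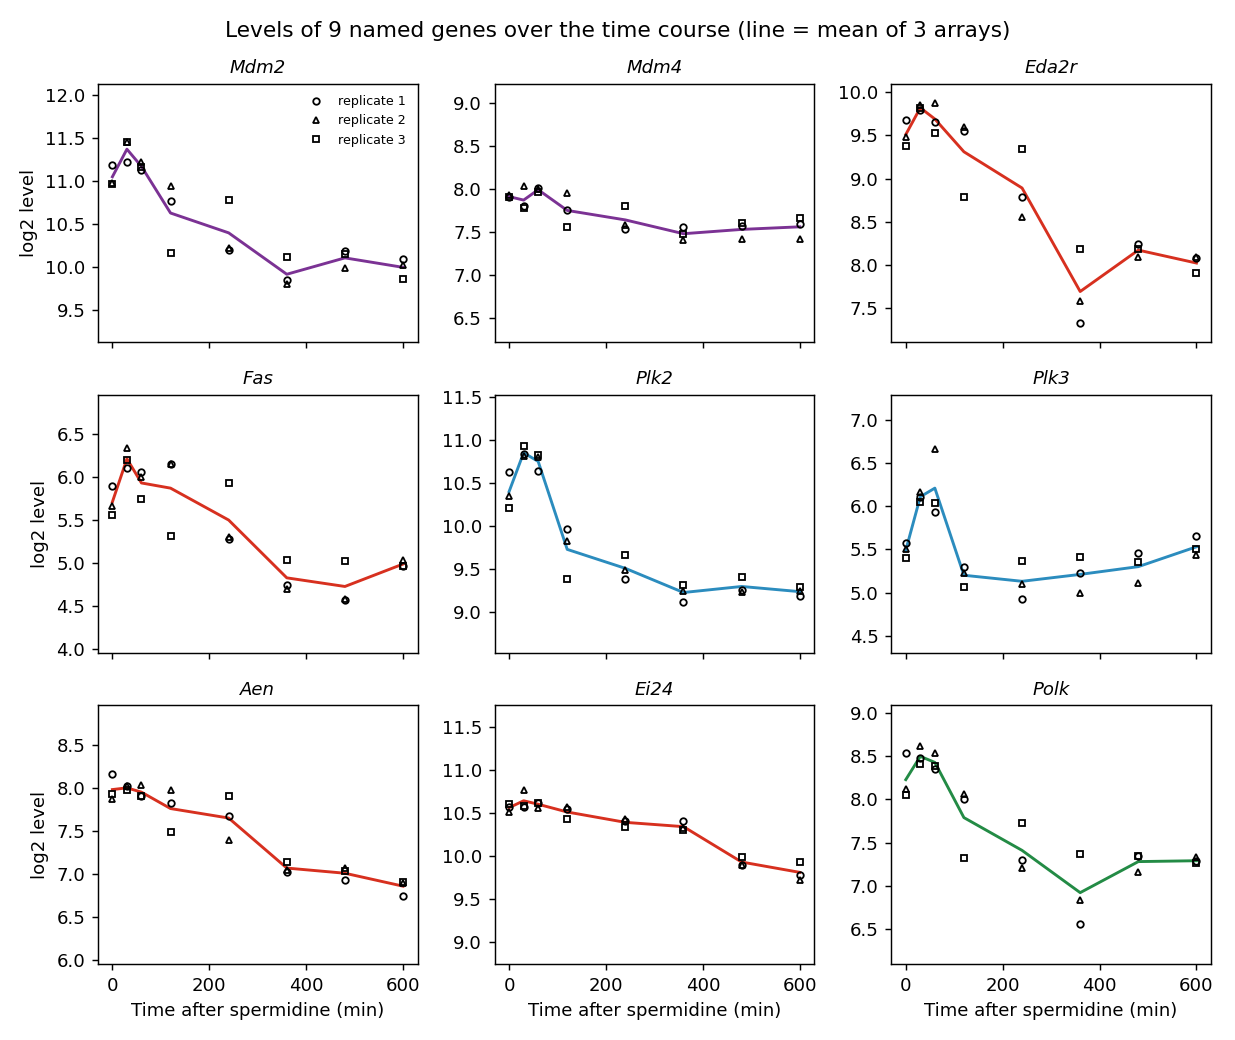
Log2 level (y axis, each panel spanning the same number of log2 units) of 9 named genes against time after spermidine in min, with 3 arrays per time as symbols and their mean as a line. Eda2r drops furthest, to a mean of 7.69 at 360 min, Plk2 is already lower at 120 min, Plk3 overlaps its 0 min values again from 360 min, and Ei24 drops mainly after 360 min.

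Over all genes, 10.5% were called lower and 8.47% higher at 360 min, 14.5% and 9.73% at 480 min, then 15.7% and 11.2% at 600 min. Of the 11 measured genes of receptors and cell death, 6 fell and 1 rose at 360 min, 7 fell and 1 rose at 480 min, and 6 fell at 600 min. Eda2r, which encodes a receptor of the tumour necrosis factor family for ectodysplasin A2, had the largest fall of all 29 genes at 360, 480 and 600 min. It stood at 9.68, 9.48 and 9.38 at 0 min, 9.80, 9.85 and 9.82 at 30 min, 9.65, 9.88 and 9.53 at 60 min, then 9.55, 9.60 and 8.78 at 120 min. It then stood at 8.79, 8.55 and 9.34 at 240 min, 7.32, 7.58 and 8.18 at 360 min, 8.24, 8.09 and 8.18 at 480 min, then 8.08, 8.09 and 7.91 at 600 min. From 360 min no array reached the lowest value of any earlier time. Eda2r fell by 1.82 ± 0.21 at 360 min, which is 3.54-fold (adjusted p = 1.02e-05), by 1.34 ± 0.21 at 480 min and by 1.49 ± 0.21 at 600 min (adjusted p = 1.73e-05).

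Fas, the classical death receptor gene, read 5.90, 5.66 and 5.56 at 0 min, 6.10, 6.34 and 6.20 at 30 min, 6.06, 6.00 and 5.74 at 60 min, 6.15, 6.15 and 5.32 at 120 min, then 5.28, 5.30 and 5.93 at 240 min. Its late values were 4.75, 4.70 and 5.04 at 360 min, 4.57, 4.59 and 5.03 at 480 min, then 4.97, 5.04 and 4.97 at 600 min. The 30 min arrays lay above and the late arrays below all 0 min arrays. The 30 min difference of 0.50 ± 0.19 did not pass (adjusted p = 0.805), and Fas fell by 0.98 ± 0.19 at 480 min (adjusted p = 7.28e-04). Tnfrsf10b, the receptor gene for the death ligand TRAIL, fell by 0.85 ± 0.15 at 360 min (adjusted p = 3.97e-04) and by 0.47 ± 0.15 at 600 min (adjusted p = 0.0233). Its 600 min call was lost when replicate 1 (adjusted p = 0.0755) or replicate 2 (0.0700) of 0 min was dropped, or replicate 2 of 600 min (0.0985).

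Aen, the gene of an apoptosis-enhancing nuclease, held its level early and was lower late. It measured 8.16, 7.87 and 7.93 at 0 min, 8.02, 8.02 and 7.98 at 30 min, 7.91, 8.03 and 7.91 at 60 min, 7.83, 7.97 and 7.49 at 120 min, then 7.67, 7.39 and 7.91 at 240 min. Later it was at 7.02, 7.05 and 7.14 at 360 min, 6.93, 7.07 and 7.04 at 480 min, then 6.75, 6.90 and 6.91 at 600 min. No late array overlapped an early one, and the fall at 600 min was 1.13 ± 0.11, or 2.18-fold (adjusted p = 2.25e-07). Ei24, which encodes a membrane protein of the endoplasmic reticulum, had its lowest values at 480 and 600 min. It stood at 10.57, 10.51 and 10.60 at 0 min, 10.57, 10.77 and 10.58 at 30 min, 10.61, 10.56 and 10.62 at 60 min, 10.54, 10.57 and 10.43 at 120 min, then 10.41, 10.43 and 10.34 at 240 min. Later values were 10.40, 10.32 and 10.30 at 360 min, 9.90, 9.90 and 9.99 at 480 min, then 9.78, 9.72 and 9.93 at 600 min. The 600 min arrays and the 0 min arrays were separated by more than their spread, with a fall of 0.75 ± 0.06 (adjusted p = 1.05e-08). The fall at 360 min was smaller, 0.21 ± 0.06 (adjusted p = 0.0108), and its call ended without replicate 3 of 0 min (adjusted p = 0.0510) or replicate 3 of 360 min (adjusted p = 0.0501).

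In the mitochondrial death pathway Bcl2l1, which encodes the survival protein Bcl-xL, fell by 0.69 ± 0.15 at 360 min (adjusted p = 0.00287), and at 600 min it was at -0.36 ± 0.15 (adjusted p = 0.0985), passing there without the outlying pair (adjusted p = 0.00187). Its 480 min call (-0.46 ± 0.15, adjusted p = 0.0349) ended without replicate 1 or 2 of 0 min or any 1 array of 480 min, with adjusted p from 0.0573 to 0.124. Pmaip1, the gene of the BH3-only protein Noxa, fell by 0.34 ± 0.12 at 600 min (adjusted p = 0.0311) and by 0.32 ± 0.12 at 480 min (adjusted p = 0.0474). Its signal was weak, at 3.78 to 4.77 over the arrays with a median of 4.18, which is under every array median. The 600 min call was lost when replicate 1 (0.134) or 2 (0.0669) of 0 min was dropped. The 480 min call was lost in the same way (0.186 and 0.0947), and also without the outlying pair (0.0521). Dropping replicate 1 of 600 min ended the 600 min call (0.146). Each of the 480 min arrays ended that of 480 min when dropped (0.172, 0.0660 and 0.0719). Bbc3, which encodes the BH3-only protein Puma, lay at -0.31 ± 0.12 at 360 min without passing (adjusted p = 0.0757), although all its arrays at 360, 480 and 600 min were below those at 0 min. Without the outlying pair it was called at 360, 480 and 600 min (adjusted p = 1.27e-04, 0.00161 and 0.00330). The Bbc3 signal was weak too, at 4.26 to 4.94 over the arrays. Its means at 360, 480 and 600 min (4.35, 4.43 and 4.45) lay near the array medians of 4.40 to 4.45. Apaf1, the scaffold gene of the apoptosome, was at -0.27 ± 0.12 at 360 min (adjusted p = 0.124) and passed there only without replicate 2 of 0 min (adjusted p = 0.0330).

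Dram1, the gene of a lysosomal membrane protein that promotes autophagy, went the other way. Its values were 6.40, 6.50 and 6.51 at 0 min, 6.42, 6.53 and 6.37 at 30 min, 6.51, 6.61 and 6.39 at 60 min, 6.58, 6.53 and 6.49 at 120 min, then 6.57, 6.65 and 6.76 at 240 min. Later values were 6.80, 6.70 and 6.98 at 360 min, 6.75, 6.73 and 6.73 at 480 min, then 6.78, 6.55 and 6.58 at 600 min. All late arrays were above all 0 min arrays. Dram1 rose by 0.36 ± 0.07 at 360 min (adjusted p = 0.00138) and by 0.27 ± 0.07 at 480 min (adjusted p = 0.00904), and at 600 min the difference was 0.17 ± 0.07 (adjusted p = 0.106), called only under quantile normalization (0.23, adjusted p = 0.00776).

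Among the 9 genes of the cell cycle, mitosis and survival signalling, 7 fell at 360 min (10.5% of all genes), while 6 fell and 1 rose at both 480 min (14.5% and 9.73%) and 600 min (15.7% and 11.2%). Plk2, a polo-like kinase gene induced by serum and by p53, was the only one of the 29 called at 120 min. It stood at 10.63, 10.35 and 10.21 at 0 min, 10.83, 10.81 and 10.93 at 30 min, 10.64, 10.80 and 10.82 at 60 min, then 9.97, 9.83 and 9.39 at 120 min. It then stood at 9.39, 9.49 and 9.66 at 240 min, 9.12, 9.25 and 9.32 at 360 min, 9.26, 9.24 and 9.41 at 480 min, then 9.19, 9.25 and 9.29 at 600 min. All 3 arrays were above those at 0 min at 30 and 60 min and below them from 120 min on. The differences were 0.46 ± 0.12 at 30 min (adjusted p = 0.521), -0.67 ± 0.12 at 120 min (adjusted p = 0.0119), -0.89 ± 0.12 at 240 min (adjusted p = 3.79e-04) and -1.17 ± 0.12 at 360 min, a 2.25-fold fall (adjusted p = 2.95e-06).

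Psrc1, which encodes a protein that regulates microtubules of the mitotic spindle, read 8.54, 8.37 and 8.23 at 0 min, 8.42, 8.62 and 8.48 at 30 min, 8.29, 8.58 and 8.28 at 60 min, 8.04, 8.25 and 7.55 at 120 min, then 7.73, 7.48 and 7.96 at 240 min. Late values were 6.99, 6.89 and 7.43 at 360 min, 7.20, 7.07 and 7.40 at 480 min, then 7.32, 7.26 and 7.20 at 600 min. The late arrays lay below every array of 0, 30, 60 and 120 min, and the fall at 360 min was 1.28 ± 0.16, or 2.43-fold (adjusted p = 1.69e-05). Ccng1, the gene of cyclin G1, was at 12.38, 12.25 and 12.28 at 0 min, 12.37, 12.33 and 12.35 at 30 min, 12.37, 12.37 and 12.35 at 60 min, then 12.37, 12.36 and 12.26 at 120 min. It was at 12.24, 12.28 and 12.30 at 240 min, 12.16, 12.24 and 12.16 at 360 min, 12.00, 12.06 and 12.11 at 480 min, then 12.01, 12.02 and 12.10 at 600 min. The 600 min and 0 min arrays did not overlap, and the fall of 0.26 ± 0.04 passed the test (adjusted p = 5.59e-05). At 360 min it was at -0.12 ± 0.04 (adjusted p = 0.0492), a call lost when replicate 1 (0.268) or 3 (0.0731) of 0 min was dropped. Dropping replicate 1 (0.150) or 3 (0.162) of 360 min, or quantile normalization (0.114), also ended it.

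Trp53inp1, a stress-induced gene that acts in p53 signalling and autophagy, fell by 1.23 ± 0.23 at 360 min (adjusted p = 7.10e-04) and by 0.86 ± 0.23 at 600 min (adjusted p = 0.00837). Both its 480 min call (-0.82, adjusted p = 0.0128) and its 600 min call were lost when replicate 1 of 0 min was dropped (0.0751 and 0.0528). Zmat3, the gene of an RNA-binding zinc finger protein, fell by 0.76 ± 0.16 at 360 min and by 0.92 ± 0.16 at 600 min (adjusted p = 0.00172 and 1.49e-04). Phlda3, which encodes a repressor of Akt signalling, fell by 0.62 ± 0.13 at 360 min (adjusted p = 0.00147) and by 0.39 ± 0.13 at 600 min (adjusted p = 0.0266). The Phlda3 call was lost without replicate 1 of 0 min at 480 min (0.0570) and 600 min (0.137), and at 600 min also without replicate 2 (0.0680) or 3 (0.0949) of that time. Gtse1, the gene of a microtubule-associated protein that binds p53, fell at 360 min alone (-0.71 ± 0.14, adjusted p = 0.00108), and at 600 min it was at -0.17 ± 0.14 (adjusted p = 0.466).

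Ckap2, the gene of a spindle protein, rose late. It measured 7.30, 7.13 and 7.24 at 0 min, 7.34, 7.35 and 7.28 at 30 min, 7.32, 7.41 and 7.30 at 60 min, then 7.49, 7.29 and 7.51 at 120 min. It measured 7.27, 7.25 and 6.94 at 240 min, 7.35, 7.36 and 7.51 at 360 min, 7.49, 7.61 and 7.57 at 480 min, then 7.57, 7.73 and 7.77 at 600 min. All 6 arrays of 480 and 600 min were above all 0 min arrays, with a rise of 0.34 ± 0.08 at 480 min (adjusted p = 0.00334) and 0.47 ± 0.08 at 600 min (adjusted p = 1.31e-04).

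Of the 4 DNA repair genes, 3 fell at each of 360, 480 and 600 min, against 10.5%, 14.5% and 15.7% of all genes. Polk, which encodes the translesion polymerase kappa, stood at 8.54, 8.12 and 8.05 at 0 min, 8.48, 8.62 and 8.41 at 30 min, 8.35, 8.54 and 8.39 at 60 min, 8.00, 8.06 and 7.32 at 120 min, then 7.30, 7.21 and 7.73 at 240 min. It then stood at 6.56, 6.83 and 7.37 at 360 min, 7.35, 7.16 and 7.34 at 480 min, then 7.29, 7.33 and 7.26 at 600 min. Its 360 min arrays were spread over a wide range but lay below every 0 min array, and the fall was 1.32 ± 0.19, or 2.49-fold (adjusted p = 6.56e-05). Ercc5, the gene of the endonuclease XPG of nucleotide excision repair, measured 8.33, 8.13 and 8.33 at 0 min, 8.42, 8.42 and 8.29 at 30 min, 8.31, 8.44 and 8.42 at 60 min, 8.19, 8.29 and 7.81 at 120 min, then 7.85, 7.89 and 8.21 at 240 min. Later it measured 7.46, 7.54 and 7.46 at 360 min, 7.52, 7.42 and 7.58 at 480 min, then 7.50, 7.45 and 7.49 at 600 min. The arrays of each late time lay close together, and Ercc5 fell by 0.79 ± 0.10 at 600 min (adjusted p = 4.16e-06). Xpc, which recognises damaged DNA in the same pathway, fell by 0.30 ± 0.07 at 360 min (adjusted p = 0.00397) and by 0.36 ± 0.07 at 600 min (adjusted p = 4.88e-04). Its 480 min call (-0.27 ± 0.07) ended without replicate 2 of 480 min (adjusted p = 0.0528). Ddb2, the gene of the ultraviolet damage sensor, was called at no single time, with -0.18 ± 0.10 at 600 min (adjusted p = 0.218).

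The remaining 3 genes act in metabolism and antigen processing, and 2 of them fell at 360 min and all 3 at 480 and 600 min, set against the same shares of all genes. Tap1, which encodes a subunit of the peptide transporter for antigen presentation, measured 6.82, 6.45 and 6.44 at 0 min, 6.69, 6.93 and 6.95 at 30 min, 6.65, 6.75 and 6.51 at 60 min, 6.33, 6.49 and 5.65 at 120 min, then 5.72, 5.91 and 6.22 at 240 min. It was at 5.37, 5.21 and 5.55 at 360 min, 5.39, 5.25 and 5.51 at 480 min, then 5.56, 5.54 and 5.70 at 600 min. All of these late arrays lay below the 0 min arrays, and the fall at 360 min was 1.19 ± 0.17, a 2.28-fold difference (adjusted p = 4.58e-05). Dcxr, the gene of a dicarbonyl and xylulose reductase, was at 8.45, 8.25 and 8.33 at 0 min, 8.26, 8.45 and 8.38 at 30 min, 8.30, 8.43 and 8.48 at 60 min, 8.00, 8.20 and 7.90 at 120 min, then 7.96, 8.03 and 8.28 at 240 min. Later it was at 7.81, 7.57 and 7.61 at 360 min, 7.49, 7.53 and 7.40 at 480 min, then 7.43, 7.26 and 7.33 at 600 min. Its mean was lower at each later of these times, and the fall at 600 min was 1.00 ± 0.09, a 2.01-fold difference (adjusted p = 5.54e-08). Ephx1, which encodes an epoxide hydrolase, fell by 0.25 ± 0.04 at 600 min (adjusted p = 7.78e-05).

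Counted over all 29 genes, 20 fell and 1 rose at 360 min, where 10.5% of all genes were called lower and 8.47% higher. At 480 min 21 fell and 2 rose, against 14.5% and 9.73% of all genes. At 600 min 20 fell and 1 rose, against 15.7% and 11.2%. A total of 18 genes were called lower at all 3 late times, and 5 (Bbc3, Apaf1, Perp, Plk3 and Ddb2) at none of them. The share of all genes with either pattern was not counted, so both numbers describe the list alone. All 3 arrays lay below all 0 min arrays for 21 of the 29 at 360 min and for 22 at 480 and 600 min, against 17.3%, 19.7% and 19.9% of all genes.

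**Figure D3:**
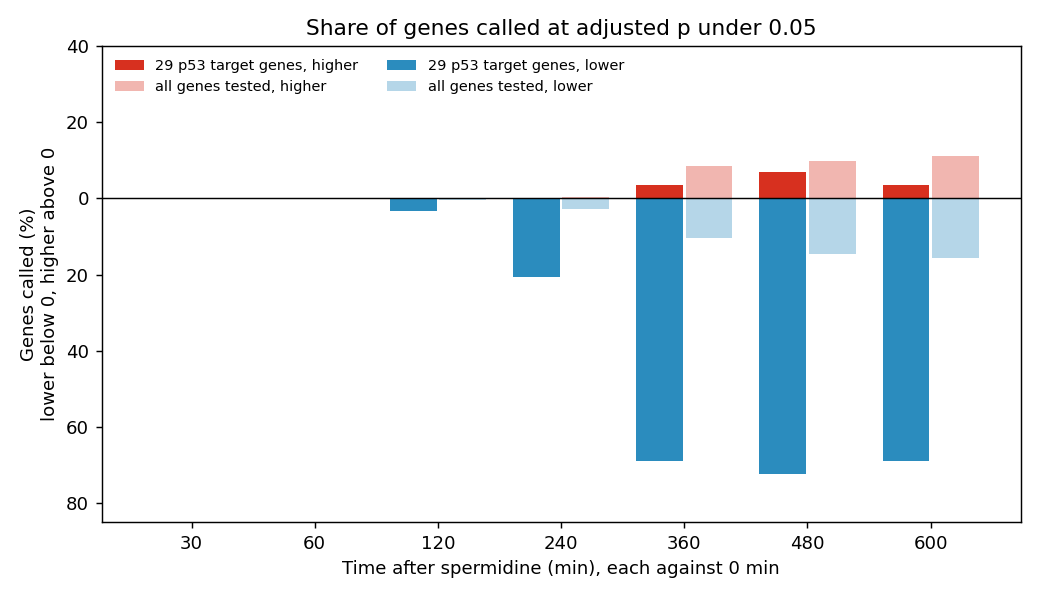
Percent of the 29 measured p53 target genes (solid bars) and of all 19938 genes tested (pale bars) called higher (above 0) or lower (below 0) than 0 min at an adjusted p under 0.05, for each time in min. No gene of the list is called at 30 or 60 min, 1 is lower at 120 min and 6 at 240 min, and 20 to 21 are lower from 360 min on.

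The time at which the fall began depends on single arrays. At 120 min only Plk2 was called lower, against 0.426% of all genes lower and 0.0451% higher, a call lost by dropping replicate 1 of 0 min (adjusted p = 0.0974) or replicate 3 of 120 min (0.0656). Without the outlying pair Plk2 was at -0.50 (adjusted p = 0.0263). Without replicate 2 of 120 min Dcxr passed as well (-0.39, adjusted p = 0.0453). At 240 min Mdm2 (-0.64 ± 0.16), Plk2, Psrc1 (-0.66 ± 0.16), Polk (-0.82 ± 0.19), Xpc (-0.27 ± 0.07) and Tap1 (-0.62 ± 0.17) were called lower, 6 of 29 against 2.69% of all genes, and 0 higher against 0.366%. Dropping 1 array of 0 min left 1 (replicate 1), 2 (replicate 2) or 3 genes (replicate 3). Dropping replicate 1 or 2 of 240 min left 1 gene, and dropping replicate 3, one of the outlying pair, gave 14. Plk2 alone kept its 240 min call in all 6 of these. With both outlying arrays dropped, 16 genes were called lower at 240 min, among them Eda2r (-0.85, adjusted p = 0.00230), Trp53inp1 (-1.05, adjusted p = 3.03e-04) and Mdm4 (-0.36, adjusted p = 0.00782). The 2.69% of all genes is from the fit with every array, and that share was not counted with arrays dropped. With the replicate number as a block, Plk2 and Polk were the 2 called at 240 min. Leaving out that pair gave 21 lower and 2 higher at both 360 and 480 min. It gave 22 lower and 1 higher at 600 min.

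A further comparison used no 0 min array. The mean of 360, 480 and 600 min was set against the mean of 30, 60 and 120 min, and 26 of the 29 genes were lower and 2 higher, against 19.4% and 16.4% of all genes. The genes called higher were Dram1 (0.24 ± 0.04) and Ckap2 (0.19 ± 0.05), and Perp was at -0.03 ± 0.03 (adjusted p = 0.612). The median of the 29 differences was -0.55, with 0.01 for all genes. The largest differences were those of Eda2r (-1.64 ± 0.12), Plk2 (-1.19 ± 0.07), Fas (-1.15 ± 0.11), Tap1 (-1.10 ± 0.10), Psrc1 (-1.08 ± 0.09), Polk (-1.08 ± 0.11) and Mdm2 (-1.05 ± 0.09). For 9 genes, Eda2r, Fas, Ei24, Aen, Ccng1, Psrc1, Zmat3, Ercc5 and Dcxr, all 9 late arrays were below all 9 early ones, as they were for 5.09% of all genes. All 28 calls were kept whichever 1 of the 18 arrays was left out, and with the replicate block. Early arrays include the 120 min array that stood apart, and without the pair the counts were again 26 and 2.

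**Figure D4:**
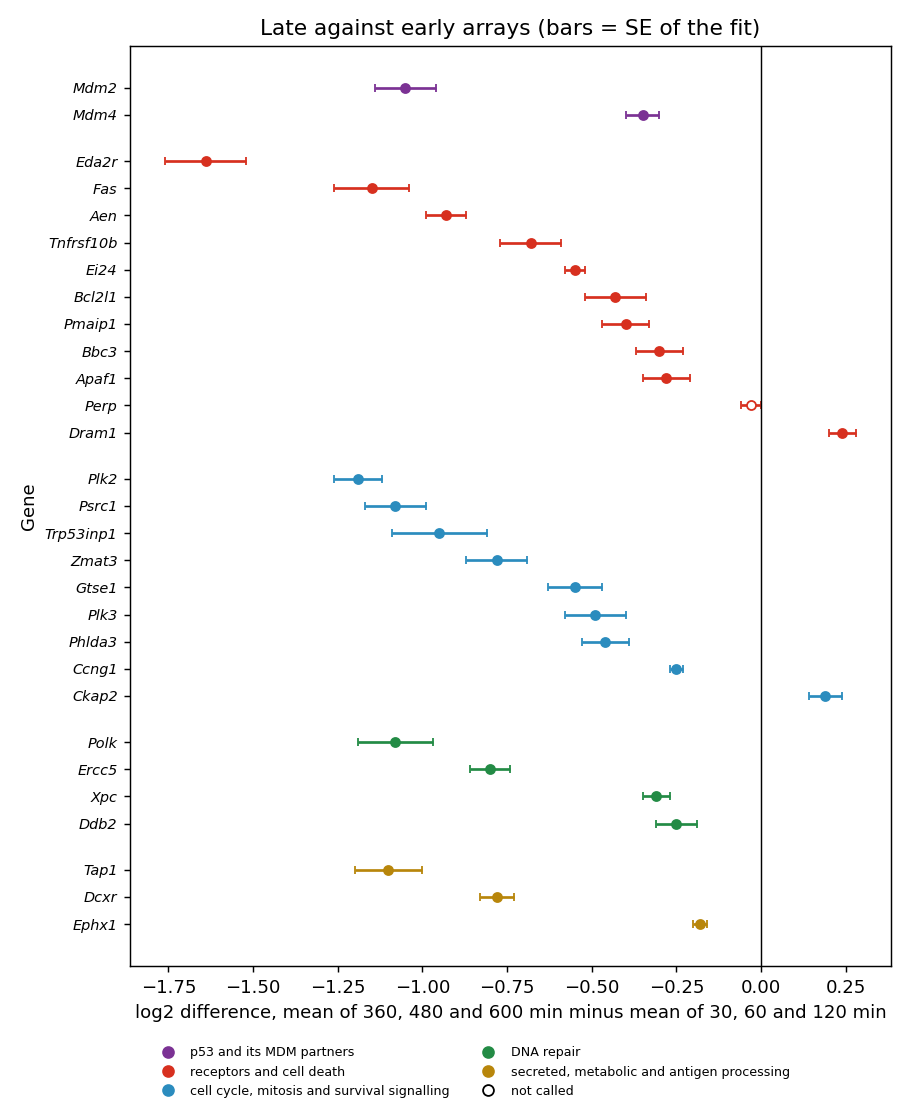
Log2 difference between the mean of 360, 480 and 600 min and the mean of 30, 60 and 120 min (x axis, bars showing the SE of the fit) for each of the 29 genes, grouped by role. Eda2r lies furthest to the left at -1.64, Dram1 and Ckap2 lie to the right of 0, and Perp, drawn open, was not called.

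Further genes of the network were read from lists that hold none of the 29. Of 24 further p53 targets, 2 rose and 7 fell at 360 min and 2 rose and 8 fell at 600 min, with medians of -0.08 and -0.14. The shares of all genes were 8.47% higher and 10.5% lower at 360 min, and 11.2% and 15.7% at 600 min, so the 2 that rose are no more than the background. Sesn1, which encodes a stress protein that restrains growth signalling, rose by 1.71 ± 0.21 at 360 min and by 2.20 ± 0.21 at 600 min (adjusted p = 1.56e-07). Gadd45a, a growth-arrest and DNA-damage gene, fell by 1.12 ± 0.18 at 600 min (adjusted p = 8.25e-05), and Rap2b, a small GTPase gene, by 0.84 ± 0.13 (adjusted p = 5.57e-05). Btg2, an antiproliferative gene that growth factors also induce, was at 1.68 ± 0.34 at 30 min (adjusted p = 0.140) and fell by 1.49 ± 0.34 at 360 min (adjusted p = 0.00291).

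Of 25 measured genes that control p53, 8 rose and 5 fell at 600 min, with a median of 0.03, against 11.2% and 15.7% of all genes. The 5 that fell are a share near that background. The checkpoint kinase genes Chek2 (1.75 ± 0.16, adjusted p = 7.09e-08) and Chek1 (1.08 ± 0.14, adjusted p = 8.27e-06) rose at 600 min, as did Atm, the kinase gene of the double-strand break response (0.66 ± 0.09). Trim28, which encodes a corepressor that works with Mdm2, rose by 0.34 ± 0.05 (adjusted p = 3.45e-05).

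Another pair of lists covers the ATF4 stress response, which shares inducible genes with p53, and mitosis, to which Ckap2, Psrc1 and Gtse1 are tied. Of 10 ATF4 and CHOP genes, 7 fell at 360 min and 8 at 600 min, against 10.5% and 15.7% of all genes, with medians of -0.57 and -0.85. At 480 min 8 fell and 1 rose, against 14.5% and 9.73%: the riser was Ddit4, an inhibitor of growth signalling (0.50 ± 0.18, adjusted p = 0.0450), named after its value was seen. Atf4, the transcription factor gene, fell by 0.94 ± 0.17 at 120 min (adjusted p = 0.0133) and by 1.33 ± 0.17 at 600 min. Ddit3, which encodes CHOP, fell by 1.72 ± 0.16 at 600 min (adjusted p = 9.47e-08), and the ATF4 targets Asns and Vldlr fell by 0.78 ± 0.06 and 0.81 ± 0.08. Of 19 G2/M and mitosis genes, 7 rose at 360 min, 13 at 480 min and 16 at 600 min, and 0 fell, with medians of 0.24, 0.43 and 0.50. The shares of all genes called higher were 8.47%, 9.73% and 11.2%. Aurkb, the gene of a mitotic kinase, rose by 1.21 ± 0.11 at 600 min (adjusted p = 6.67e-08), Bub1, of the spindle checkpoint, by 1.05 ± 0.10, Ccna2, cyclin A2, by 0.94 ± 0.10, and Top2a, topoisomerase II alpha, by 0.74 ± 0.09.

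**Figure D5:**
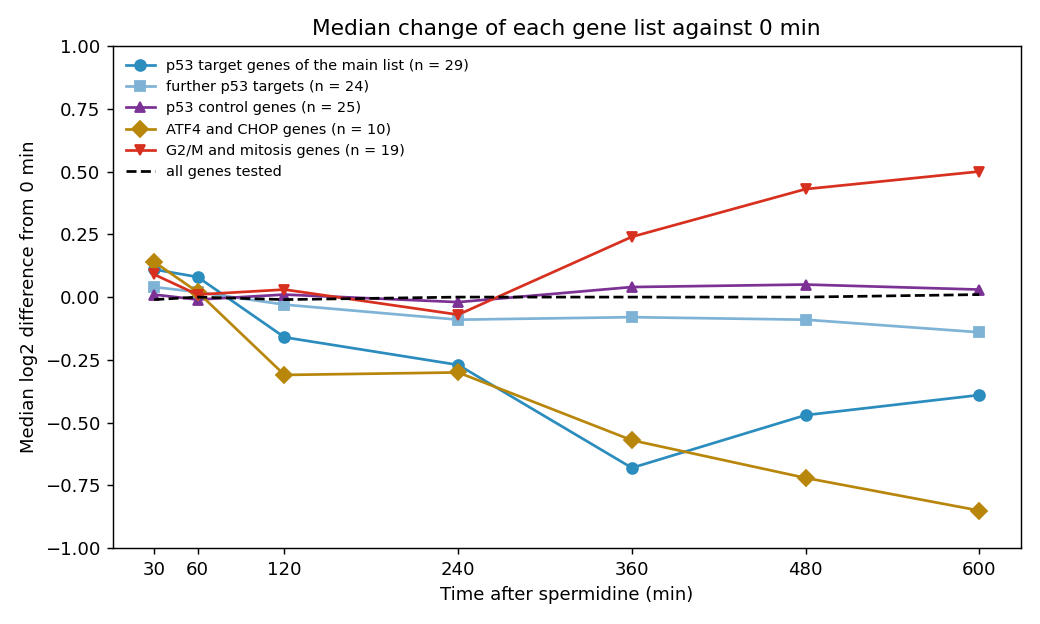
Median log2 difference from 0 min (y axis) of the 29 measured p53 target genes, 4 further gene lists and all genes tested (dashed) against time after spermidine in min. The p53 targets reach their lowest median, -0.68, at 360 min, the ATF4 and CHOP genes reach -0.85 at 600 min, the mitosis genes rise to 0.50, and the p53 control genes and all genes stay near 0.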

How the data were processed

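Per the labels' protocols, total RNA (3 biological replicates for each of 8 times) was labelled with an Affymetrix WT kit and hybridised. Per the submitters' processing notes, the authors used Partek and RMA; their versions are not given in the sources used here. Values were taken as deposited and read as log2 levels, a scale inferred from their range and from RMA. For every gene the 3 replicate numbers had equal means over the 8 times (median gap 5.00e-06, largest 8.75e-05), so an effect of replicate number had been removed before deposit, a step not described in the sources used here. The p-values of a fit without a block are therefore somewhat too small.

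Of 35399 probe sets, 21789 had 1 gene symbol in the platform annotation, 1621 several and 11989 none. Genes took the probe set with the highest mean, which gave 19938 genes. With limma 3.58.1 (R 4.3.3; data.table at 1.17.8), all 24 arrays entered a model of 1 mean per time, on 16 residual and 3.48 prior degrees of freedom. Tests were two-sided, with Benjamini-Hochberg adjustment over all genes, and called at 0.05. The script was tested on simulated data. Levels are given per array, and changes with the SE of the fit. Deviations of arrays with the same replicate number correlated between -0.53 and 0.18 (median -0.15). The removal itself pushes this correlation below 0, so it does not show whether the numbers pair arrays. The labels name no shared batch, and the block (14 residual degrees of freedom) was an alternative.

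Members and lists were chosen with earlier results of these data known. Array values are given for Mdm2, Mdm4, the 12 members with the smallest F-test p and the 3 with the smallest p at 30 min. Those of Dram1 and Ckap2 were added after their values were seen, because they alone rose. Of the other lists the 4 genes with the smallest F-test p are named. Some genes of these lists are not reported here. The alternatives were a replicate block, median centring, quantile normalization, a filter on dim genes, averaged probe sets, a trended prior, a fit to 6 arrays, leaving out each array, and, added with the array positions known, leaving out the pair that stood apart.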

Additional observations from a re-analysis of the deposited data

Results flagged for a closer look

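For 8 of the 29 genes every array lay above all 0 min arrays at 30 or 60 min and every array lay below them at 360, 480 and 600 min, as for 1.13% of all genes. The difference between early and late shifts is the late against early comparison above, in which all 8 were called lower. Since these genes were picked for this pattern, those calls restate it. As a description, the mean of 360, 480 and 600 min minus that of 30, 60 and 120 min was -1.05 for Mdm2, -1.64 for Eda2r, -1.15 for Fas and -0.78 for Zmat3, each with all its 30 min arrays above 0 min. It was -1.19 for Plk2, which was above 0 min in all arrays of both 30 and 60 min. It was -0.35 for Mdm4, -0.30 for Bbc3 and -0.31 for Xpc, which were above 0 min in all 60 min arrays. The Bbc3 signal was weak, near the array medians. No difference of these 8 genes from 0 min at 30 or 60 min passed the test over all genes. Replicate 1 of 0 min had a mean difference over the 29 genes of 0.11 from the 0 min mean, against -0.05 and -0.06 in both other arrays of that time.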

How the results depend on the processing

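The 100 member calls at single times and late against early kept their sign under quantile normalization, median centring, averaged probe sets, the replicate block, without the outlying pair and without each array. In the F-test, where direction is that of the largest difference, Apaf1 turned from -0.27 to 0.27 under quantile normalization. The counts of called genes at 360, 480 and 600 min, in the F-test and late against early stayed within 1.5 times of those reported in every alternative. Those at 120 and 240 min did not. Shares of all genes called were not counted under the alternatives, so these counts have no background beside them. At 240 min 6 genes became 2 with the replicate block, 16 without the outlying arrays (replicate 3 of 120 and of 240 min), 15 without that pair and with the replicate block, and 0 in a fit to only the 6 arrays compared, and quantile normalization gave 1 higher and 3 lower. At 120 min 1 gene became 0 without the pair and with the block, and 0 in the fit to 6 arrays, and at 30 min 0 became 1 (Plk3) in that fit. Leaving out each array in turn gave 0 to 2 genes at 120 min and 1 to 14 at 240 min. It gave 19 to 22 at 360 min, 19 to 23 at 480 min, 17 to 21 at 600 min, 25 to 28 in the F-test and 28 late against early. The replicate block gave 20 genes at 360 min, 21 at 480 min and 21 at 600 min, and 26 in the F-test, losing Ccng1 at 360 min (adjusted p = 0.0826), Bcl2l1 (0.0535) and Pmaip1 (0.0706) at 480 min, and Bbc3 (0.0779) and Ddb2 (0.0716) in the F-test. In the F-test Bbc3, Ddb2 and Apaf1 were also lost without some single arrays (adjusted p up to 0.0960, 0.0883 and 0.0681). Some alternatives had fewer arrays or degrees of freedom, and the cause of these changes was not tested. Weakly hybridising probe sets such as those of Perp, Pmaip1 and Bbc3 carry little information.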
